A study of Drosophila melanogaster with 2 samples.

Results

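The proteasome subunit genes of Drosophila melanogaster were taken as all protein-coding genes whose symbol starts with Prosalpha or Prosbeta, or with Rpn or Rpt and a number. This gave 48 of the 13945 protein-coding genes on the 6 main chromosome arms (Ensembl release 115, dm6 coordinates). No measured value entered this rule, but the family was chosen with earlier results of these data known. By symbol, 14 genes encode the core particle, with 7 in the alpha ring and 7 in the beta ring. Another 18 encode the cap, with 10 in its base and 8 in its lid. The remaining 16 are paralogues whose symbol carries an R or a T after the subunit number, and are called testis paralogues here.

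The proteasome is the protease that degrades proteins tagged with ubiquitin. Its core is a barrel in which outer alpha rings gate the entry and inner beta rings hold the proteolytic sites. The cap binds the tagged substrate, removes its ubiquitin in the lid, and unfolds it with a ring of ATPases in the base. Cells of all tissues need the core and cap genes, whereas many of the fly paralogues are known to be expressed in the male germ line. Subunit roles given below are known largely from yeast and mammals.

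HLH3B belongs to the basic helix-loop-helix (bHLH) proteins, in the group of vertebrate Tal1, and its binding was mapped by chromatin immunoprecipitation and sequencing (ChIP-seq). The material was whole embryos aged 8 to 24 hours of the strain HLH3B-GFP, whose flies are transgenic for an HLH3B-eGFP fusion, and the fusion was pulled down through GFP. This age is from the description of the source material, and a separate age label of both samples gives another value, which was not used. There was 1 group of 2 biological replicates, both carrying the transgene, and no second condition. The protein mapped was therefore a tagged copy, a site cannot be placed in a tissue, and the control was not analysed here. A site is a peak of a thresholded list, its signal is the authors' own value on a scale that the sources used here do not give, and signals are read only within a list. A gene counts as bound when a peak summit falls within the gene or within 2000 bp upstream of it.

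Stretches of the RefSeq Release 6 genome (dm6) are printed 5′ to 3′, without exons. The first set shows the sequence under sites at or upstream of proteasome genes, because the calls described next rest on these sites. Capitals mark TATCGATA, the DNA replication-related element (DRE) bound by the factor Dref, and the E-box CANNTG, the core recognised by bHLH proteins. Rpn3 is the whole gap between the start of l(2)37Bb and that of Rpn3 (chr2L:19051613-19051789, plus strand), and Prosbeta2 is the gap between mRpL39 and Prosbeta2 (chr3L:14999667-14999950, plus strand). The site upstream of Prosbeta6 is the gap between Su(P) and CG4101 (chr3L:16612200-16612485, plus strand). The site upstream of Rpn2 is the gap between eIF2D and Slbp (chr3R:29151795-29152073, plus strand). The site upstream of Rpn11 is the sequence within 50 bp of its summit in an intron of qtc (chr2L:5061271-5061371, plus strand).
Rpn3: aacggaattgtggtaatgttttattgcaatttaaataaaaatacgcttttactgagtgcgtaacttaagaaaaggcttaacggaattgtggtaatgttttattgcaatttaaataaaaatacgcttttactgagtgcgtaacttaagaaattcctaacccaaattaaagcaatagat
Prosbeta2: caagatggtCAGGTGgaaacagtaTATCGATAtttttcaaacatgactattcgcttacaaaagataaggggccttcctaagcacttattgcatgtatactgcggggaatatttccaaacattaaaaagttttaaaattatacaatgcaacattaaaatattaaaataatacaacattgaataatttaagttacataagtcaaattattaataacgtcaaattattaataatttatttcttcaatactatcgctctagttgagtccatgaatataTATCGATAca
Prosbeta6 upstream site: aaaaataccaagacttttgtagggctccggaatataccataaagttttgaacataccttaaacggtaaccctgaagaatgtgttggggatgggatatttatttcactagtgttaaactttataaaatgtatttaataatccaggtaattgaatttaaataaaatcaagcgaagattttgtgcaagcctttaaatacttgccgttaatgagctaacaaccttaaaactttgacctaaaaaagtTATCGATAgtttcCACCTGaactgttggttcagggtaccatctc
Rpn2 upstream site: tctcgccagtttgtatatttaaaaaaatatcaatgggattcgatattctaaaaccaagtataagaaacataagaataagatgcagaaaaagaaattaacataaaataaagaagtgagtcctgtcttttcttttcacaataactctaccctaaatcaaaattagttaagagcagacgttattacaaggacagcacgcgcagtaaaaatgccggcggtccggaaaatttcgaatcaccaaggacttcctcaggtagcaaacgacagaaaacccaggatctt
Rpn11 upstream site: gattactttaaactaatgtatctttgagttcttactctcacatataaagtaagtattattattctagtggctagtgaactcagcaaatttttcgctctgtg

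The second set shows promoters without a site at the start, with a DRE in a core gene and a lid gene and none in the testis paralogue of that lid gene. Prosalpha6 is the gap to Npc1a (chr2L:10221217-10221350, plus strand). Rpn12 and Rpn12R are the 220 bases before the gene (chr3L:16582808-16583027, plus strand, and chr3L:15042571-15042790, minus strand).
Prosalpha6: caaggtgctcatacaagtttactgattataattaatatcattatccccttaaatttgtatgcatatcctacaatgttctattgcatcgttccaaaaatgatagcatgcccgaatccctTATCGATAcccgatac
Rpn12: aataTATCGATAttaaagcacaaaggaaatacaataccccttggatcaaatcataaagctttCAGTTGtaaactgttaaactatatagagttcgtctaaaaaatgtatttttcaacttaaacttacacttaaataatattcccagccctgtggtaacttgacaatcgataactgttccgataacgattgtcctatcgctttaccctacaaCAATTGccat
Rpn12R: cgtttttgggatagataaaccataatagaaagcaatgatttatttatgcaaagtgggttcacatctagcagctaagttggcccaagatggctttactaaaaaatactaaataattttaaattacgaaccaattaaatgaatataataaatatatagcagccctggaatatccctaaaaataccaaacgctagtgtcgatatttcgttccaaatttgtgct

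Of the 48 proteasome genes, 7 were bound in the conservative list of 3846 sites, or 14.6% (Wilson 95% interval 7.25 to 27.2%), against 23.1% of all protein-coding genes. The 7 were split over the complex. Prosalpha3 was the bound alpha ring gene, and Prosbeta2 and Prosbeta6 were the bound beta ring genes. Rpn2 was the bound base gene, and Rpn3, Rpn6 and Rpn11 were bound in the lid. This made 3 of 14 core genes (21.4%, 7.57 to 47.6%) and 4 of 18 cap genes (22.2%, 9.0 to 45.2%). Together 7 of 32 core and cap genes were bound (21.9%, 11.0 to 38.8%), a share near that of all protein-coding genes. None of the 16 testis paralogues was bound, and a count of 0 of 16 allows a share of up to 18.8%. The intervals and this limit cover counting error only.

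The same count was lower or higher with other lists and windows, and each count is given beside the share in all protein-coding genes. In the authors' other series-level list, 11 proteasome genes were bound (22.9%), against 30.6% of all protein-coding genes. The list of replicate 1 alone bound 7 (14.6%), against 23.2%, and that of replicate 2 alone bound 8 (16.7%), against 22.5%. With a summit within 1000 bp of a transcript start, 4 proteasome genes were bound (8.33%), against 16.9%. Counted in that window, 7 were bound in the other series-level list, 4 in replicate 1 and 7 in replicate 2, against 23.3%, 17.3% and 16.5% of all protein-coding genes. The stricter upper part of the conservative list, at or above its median signal, bound 2 proteasome genes, Rpn3 and Rpn11 (4.17%, against 14.5%). All candidates past the threshold bound 7 (against 23.4%), as did any overlap of the peak interval (against 23.8%). A reach of 5000 bp upstream bound 9 (18.8%, against 30.2%), adding Prosbeta7 and the ATPase gene Rpt2 at 3515 and 2889 bp. Given to the nearest start, sites fell to 5 proteasome genes over starts of any gene type (against 16.9%) and 6 over protein-coding starts (against 18.6%). Those then included the testis paralogues Rpn13R, 12128 bp from its site, and, over protein-coding starts, Prosbeta5R1, at 11580 and 11786 bp. In the gene body alone 1 proteasome gene, Rpn6, was bound, against 10.2% of all protein-coding genes. Proteasome genes were short, with a median length of 1381 bp, against 2166 bp over all protein-coding genes. Of the 7991 protein-coding genes between 881 and 4500 bp, the range of the proteasome genes, 18.7% were bound.

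**Figure D1:**
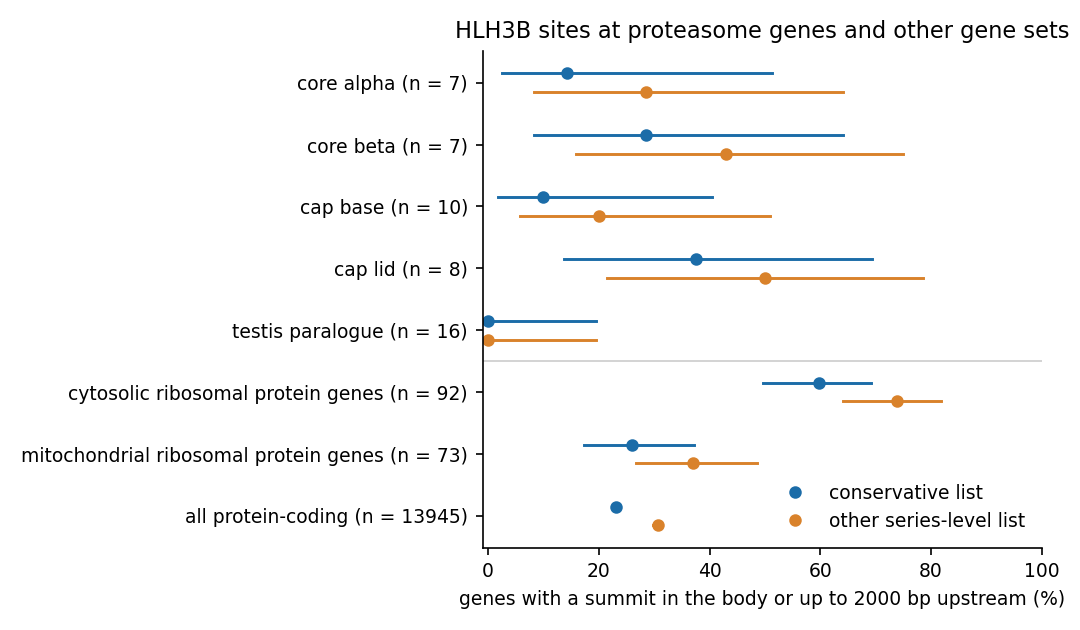
Share of genes bound by HLH3B (x axis, % of genes with a summit in the body or up to 2000 bp upstream) in each class of proteasome genes, then in ribosomal protein genes and all protein-coding genes (y axis). Points are shares and lines Wilson 95% intervals, in the conservative list and the other series-level list. The testis paralogues sit at 0 in both lists, and cytosolic ribosomal protein genes at 59.8% and 73.9%.

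Cytosolic and mitochondrial ribosomal protein genes are the families most like the proteasome genes, since they too encode the parts of large complexes that all cells use. The proteasome genes were bound in 14.6% of cases, the cytosolic ribosomal protein genes in 59.8% (55 of 92, 49.6 to 69.2%) and the mitochondrial ones in 26.0% (19 of 73, 17.3 to 37.1%). The interval of the 32 core and cap genes, 11.0 to 38.8%, lay below that of the cytosolic ribosomal genes and overlapped that of the mitochondrial ones. In replicate 2 alone the intervals of the core and cap genes (25.0%, 13.3 to 42.1%) and the cytosolic ribosomal genes (47.8%, 37.9 to 57.9%) overlapped. The median signal was 123 over the 7 proteasome sites, 155 over the 58 sites of cytosolic ribosomal protein genes, and 139 over all 3846 sites. No test of a difference between gene sets was run.

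Of the 7 bound genes, 4 had the summit at their own start. Rpn3, a scaffold subunit of the lid, had the strongest site of the proteasome genes, with a signal of 219 and rank 1014 of 3846 (2L 19051730 to 19051854). Its summit lay in the intergenic gap 11 bp upstream of the Rpn3 start and 167 bp from the start of l(2)37Bb on the other strand. The candidate peak there reached 104 in replicate 1 and 117 in replicate 2, with summits 8 bp downstream and 32 bp upstream of the start. Both replicates placed it high, at the 93.7th and 94.1st percentile of all protein-coding genes by the strongest candidate within 1000 bp of a start.

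The Rpn3 gap is itself repetitive. Of its 177 bases, the 72 from 19051613 to 19051684 recur without a mismatch 78 bp further on, up to 19051762. The summit lay 17 bp beyond the end of this repeat. The Rpn3 site was 125 bp wide, while the other 6 proteasome sites and the median site of the list were 336 bp wide. How reads that match more than 1 place were treated is not stated in the sources used here, and its effect on this site was not tested.

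Prosbeta2 encodes the trypsin-like proteolytic subunit. Its site (3L 14999672 to 15000007) had a signal of 123 and rank 2204, with the summit 111 bp upstream of Prosbeta2 and 174 bp from the start of mRpL39, a mitochondrial ribosomal protein gene on the other strand. The signal was 56.1 in replicate 1, with the summit 1 bp nearer to mRpL39 than to Prosbeta2, and 72.6 in replicate 2. The sequence within 50 bp of the summit was the poorest in G+C of the 7 sites, at 14.9%.

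Rpn6 encodes the lid subunit that clamps the lid to the core. The site (2R 14752197 to 14752532) had a signal of 123 and rank 2218, and its summit lay 94 bp upstream of the downstream Rpn6 start at 14752271. It was in an intron of the longer Rpn6 transcript, which starts at 14752910, and 156 bp from the start of ave on the other strand, a gene of receptor tyrosine kinase signalling. Replicate 2 held it with a signal of 80.6 and a −log10 IDR of 4.08, where IDR is the irreproducible discovery rate, a measure of how poorly peak ranks repeat. In replicate 1 the candidate had 42.5 and a −log10 IDR of 1.32, under the threshold of 2, so Rpn6 was bound in replicate 2 and not in replicate 1.

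Prosalpha3, an alpha ring subunit, had the weakest of the 7 sites (2R 20994714 to 20995049), with a signal of 82.8 and rank 3353 of 3846. Its summit lay 18 bp upstream of the start and 501 bp from dgt3, an augmin subunit gene. The signal was 52.8 in replicate 1, with the summit 35 bp inside the 5' UTR, and 43.0 in replicate 2, with the summit 66 bp upstream. The −log10 IDR was 2.21 and 2.22, just past the threshold in both replicates.

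The other 3 bound genes had a site between 1531 and 1952 bp upstream that was nearer to another gene. Rpn11 encodes the deubiquitinase of the lid. The site upstream of it (2L 5061153 to 5061488) had a signal of 216 and rank 1027, with 122 in replicate 1 and 97.8 in replicate 2. It lay 1531 bp from Rpn11 and 506 bp downstream of the start of qtc, inside a qtc intron. It counts for Rpn11 by distance alone.

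Rpn2, a large scaffold of the base, had a site 1632 bp upstream (3R 29151724 to 29152059, signal 127, rank 2141). The start of eIF2D, a translation factor gene, was 98 bp from the summit. The signal was 80.9 in replicate 1 and 35.7 in replicate 2, where the −log10 IDR of 1.00 missed the threshold. Rpn2 was thus bound in replicate 1 and not in replicate 2. In the candidate list behind the conservative sites the −log10 IDR was 2.69, past the threshold. Prosbeta6 encodes a beta ring subunit without proteolytic activity. Its site lay 1952 bp upstream (3L 16612202 to 16612537, signal 118, rank 2325), between Su(P) at 171 bp and CG4101 at 116 bp. The signal was 71.6 in replicate 1 and 44.5 in replicate 2, both past the threshold.

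Of the 7 bound genes, 5 were thus bound in all 4 thresholded lists. These were Rpn3, Prosbeta2, Prosalpha3, Rpn11 and Prosbeta6. The signals of 5 of the 7 sites lay below the median of 139, and 2 lay above it.

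**Figure D2:**
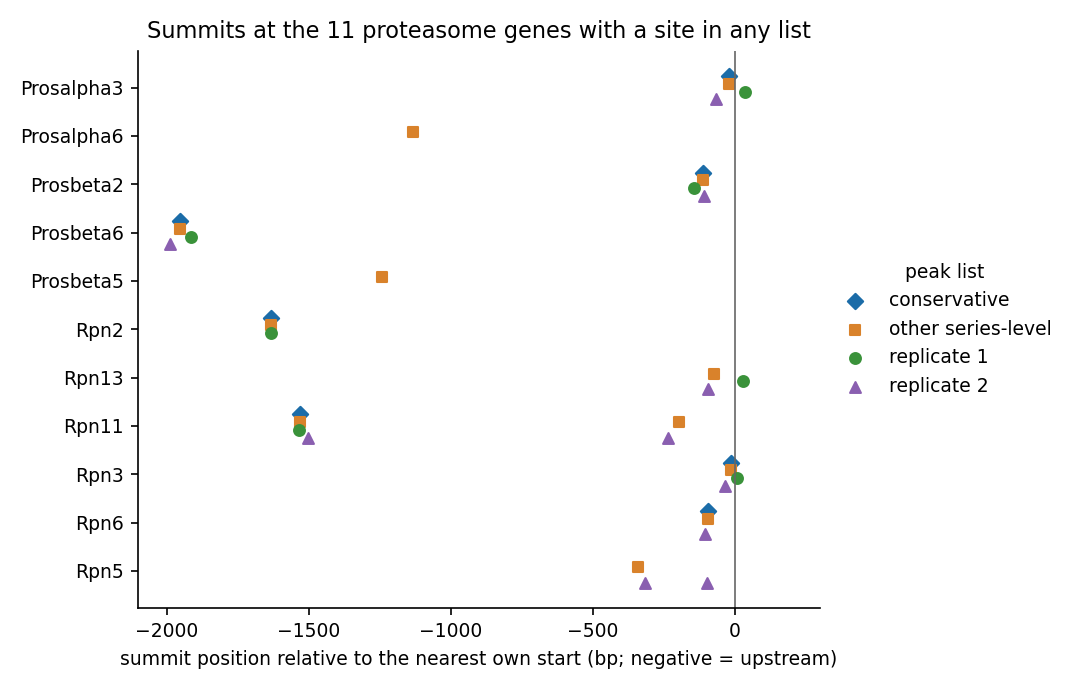
Position of each summit relative to the nearest start of the proteasome gene itself (x axis, bp, negative upstream) for the 11 genes with a site in any thresholded list (y axis). Symbols give the peak list. Sites of Rpn3, Prosbeta2, Rpn6 and Prosalpha3 gather at the start in every list that holds them, and those of Rpn11, Rpn2 and Prosbeta6 lie between 1501 and 1990 bp upstream, with a further Rpn11 site near its start in 2 lists.

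A further 4 genes had a site in another list and none in the conservative list. Rpn13, a ubiquitin receptor of the base, was in both replicate lists. It reached 59.7 in replicate 1, with the summit 29 bp inside the 5' UTR, and 56.2 in replicate 2, with the summit 95 bp upstream. The other series-level list held it with a signal of 109 and the summit 74 bp upstream, whereas in the candidate list behind the conservative sites the −log10 IDR was 0.18. In each replicate the Rpn13 start stood high, at the 86.2nd and 86.6th percentile of all protein-coding genes.

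Rpn5, a scaffold subunit of the lid, had a site in the other series-level list (signal 57.7) and in replicate 2 (46.6). The summits lay 78 and 105 bp from the start of Hat1, a histone acetyltransferase gene on the other strand, and 341 and 314 bp from Rpn5. Replicate 2 held a second, weak Rpn5 peak of 11.7. Replicate 1 had no candidate summit within 100 bp of the stronger one.

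Prosbeta5, the chymotrypsin-like subunit, had a site of 66.5 in the other series-level list, 1242 bp upstream in a coding exon of dgo. The alpha ring gene Prosalpha6 had one of 59.6 there, 1134 bp upstream in the 5' UTR of Npc1a. Neither was in a replicate list, and the replicate 1 candidate at the Prosbeta5 site had 50.7 with a −log10 IDR of 1.23. Rpn11 had a second site near its own start, 194 bp upstream in the other series-level list (81.3) and 234 bp upstream in replicate 2 (58.0), where replicate 1 had 26.1.

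In all, 11 of 48 proteasome genes (22.9%) had a site in any of the 4 lists, against 32.5% of all protein-coding genes, and 37 had none. Among the core genes the 9 without one were Prosalpha1, Prosalpha2, Prosalpha4, Prosalpha5, Prosalpha7, Prosbeta1, Prosbeta3, Prosbeta4 and Prosbeta7. Among the cap genes the 12 were Rpn1, Rpn7, Rpn8, Rpn9, Rpn10 and Rpn12 and all 6 ATPase genes, Rpt1 to Rpt6. They also included all 16 testis paralogues, which were Prosalpha1R, Prosalpha3T, Prosalpha4T1, Prosalpha4T2, Prosalpha6T, Prosbeta2R1, Prosbeta2R2, Prosbeta4R1, Prosbeta4R2, Prosbeta5R1, Prosbeta5R2, Rpn12R, Rpn13R, Rpt3R, Rpt4R and Rpt6R. No ATPase gene of the base was bound, and none of the 10 base genes had a summit within 1000 bp of a start in the conservative list.

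Candidate peaks, which include those that missed the IDR threshold, rank the starts that had no site. Rpt5, an ATPase, had a candidate of 43.7 in replicate 2, 68 bp upstream, and 23.4 in replicate 1. The lid gene Rpn8, the partner of Rpn11, had 41.2 in replicate 2 with a −log10 IDR of 1.87, close under the threshold, and 24.3 in replicate 1. The replicates thus placed Rpt5 at the 49.5th and 83.4th percentile of all protein-coding genes, and Rpn8 at the 51.7th and 82.7th. Rpn9, a scaffold subunit of the lid, had 39.0 in replicate 1 and 21.2 in replicate 2. Prosbeta4, a beta ring subunit without proteolytic activity, had 38.4 in replicate 1 and no candidate within 1000 bp in replicate 2. The testis paralogue Prosbeta2R2 had 45.1 and 26.2, at summits 479 and 367 bp upstream that were nearer to CG1116. These 5 starts were the highest of those without a site. Rpt5 and Rpn8 stood high in replicate 2 alone and Prosbeta4 in replicate 1 alone.

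The replicates differed in how many testis paralogue starts carried a candidate. In replicate 1, 31 of 32 core and cap genes and 4 of 16 testis paralogues had a candidate within 1000 bp of a start, against 80.0% of all protein-coding genes. In replicate 2 the counts were 26 of 32 and 14 of 16, against 73.8%. In replicate 2 the testis paralogues had a median signal of 17.6 and a highest signal of 26.2, and the core and cap genes a median of 19.3 and a highest of 117. By the strongest candidate, the median percentile of core and cap genes was 58.7 in replicate 1 and 60.5 in replicate 2. By class, the alpha ring genes were at 63.3 and 59.8, the beta ring genes at 63.2 and 30.4, the base genes at 51.6 and 49.1 and the lid genes at 63.1 and 83.5. Of the 16 testis paralogues, 1 lay above the median of all protein-coding genes in replicate 1 and 9 in replicate 2, where their median percentile was 55.1. The beta ring, the lid and the testis paralogues thus changed place between the replicates more than the alpha ring and the base did. Across the 48 genes the 2 replicates' values had a Spearman's rho of 0.39, and across all 13945 protein-coding genes 0.48. Genes are not independent replicates, and the libraries' depths are unknown.

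**Figure D3:**
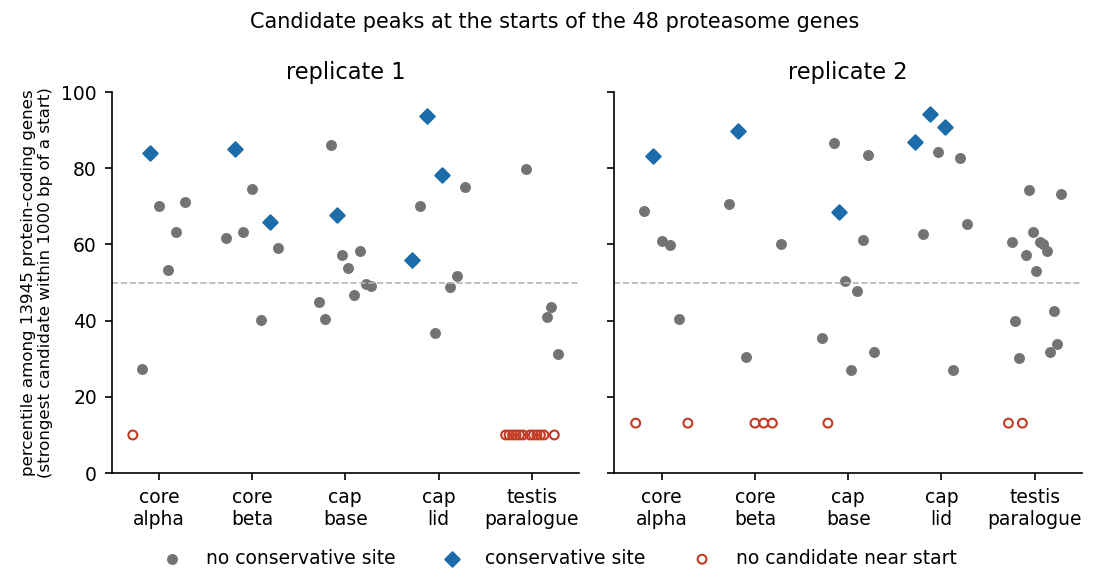
Strongest candidate peak within 1000 bp of a start, as a percentile among 13945 protein-coding genes (y axis), for each of the 48 proteasome genes by class (x axis), in replicate 1 and replicate 2. Diamonds are genes bound in the conservative list, filled circles are other genes, and open circles are genes with no candidate near a start, drawn at the percentile they are tied at. Of the testis paralogues 12 are open circles in replicate 1 and 2 in replicate 2.

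Prosalpha1 and its paralogue Prosalpha1R had no candidate within 1000 bp of a start in either replicate. The same held for Prosalpha6T. Every 36-base word within 1000 bp of the Prosalpha1 and Prosalpha1R starts occurs again on the 6 arms (100% of 1966 words for each). The word length was set here, since the sources used here do not give the read length. The next highest share was 4.78%, at Rpn3, and 42 of the 48 starts had no repeated word. Whether the missing candidates at Prosalpha1 and Prosalpha1R come from how repeated reads were treated was not tested, and at Prosalpha6T no word was repeated.

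Most core and cap genes started close to a gene on the other strand, and most testis paralogues did not. Another protein-coding gene started on the other strand within 1000 bp in 22 of 32 core and cap genes (68.8%) and in 4 of 16 testis paralogues (25.0%), against 36.9% of all protein-coding genes and 53.4% of all bound ones. The same held for 55 of 92 cytosolic ribosomal protein genes (59.8%) and 58 of 73 mitochondrial ones (79.5%), so it was not particular to proteasome genes. Of the 7 bound proteasome genes, 5 had such a neighbour. The start to start distance was 178 bp at Rpn3, 285 bp at Prosbeta2, 250 bp at Rpn6, 258 bp at Rpn2 (to Slbp) and 519 bp at Prosalpha3. The Rpn2 site was not in this gap but 1632 bp upstream, 98 bp from the start of eIF2D. Starts at similar or shorter distances without a site included Rpt5, 42 bp from RanBP3, Rpt4, 58 bp from mldr, and Prosalpha4, 90 bp from kat80. Which gene of such a pair a site belongs to cannot be told apart in peak lists.

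The DRE was found in 12 of 48 proteasome promoters, taken from 250 bp upstream to 50 bp downstream of the gene start, or 25.0% (14.9 to 38.8%), against 9.36% of all protein-coding promoters. All 12 were core or cap genes, which made 37.5% of these (12 of 32, 22.9 to 54.7%), and none of the 16 testis paralogues held it. They were Prosalpha3, Prosalpha5, Prosalpha6, Prosbeta1, Prosbeta2, Prosbeta6, Rpn3, Rpn7, Rpn9, Rpn12, Rpn13 and Rpt5. The middle of the DRE lay 7 bp upstream of the Prosbeta2 start, 13 bp upstream of Prosalpha6, 17 bp upstream of Prosalpha5 and 40 bp upstream of Prosbeta6, and the furthest were 213 bp upstream of Rpn12 and Rpn13. That of Rpn3 was 194 bp upstream, inside the transcribed part of l(2)37Bb and so outside the printed gap.

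Of the 7 bound genes 4 had a DRE in the promoter (57.1%, 25.0 to 84.2%), as did 8 of the 41 others (19.5%, 10.2 to 34.0%). These intervals overlap. In the 500 bp upstream of the start the shares were 71.4% (35.9 to 91.8%) and 17.1% (8.53 to 31.3%), and the intervals did not overlap. A link between the DRE and binding was not tested. The site counted for Prosbeta6 lay 1952 bp upstream and not at the promoter that held its DRE. None of the 7 summits had a DRE within 50 bp, against 0.988% of all 3846 sites, so the count was near that of all sites. In the printed Prosbeta2 gap the DREs lay 104 and 146 bp from the summit, one at each end, and in the printed gap upstream of Prosbeta6 the DRE lay 75 bp from it. The sequence is its own reverse complement, so both strands give the same match.

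E-box shares in proteasome promoters were below those of all promoters, but only for CAGCTG did the interval lie below as well. CANNTG was in 34 of 48 promoters (70.8%, 56.8 to 81.8%), against 77.2% of all protein-coding promoters. It was in none of the 7 summit windows (0 to 35.4%), against 33.2% of all sites, a share that this interval covers. CAGATG, the textbook E-box of Tal1-type proteins, was in 3 promoters, those of Prosbeta1, Rpt3 and Prosbeta4R1 (6.25%, 2.15 to 16.8%, against 11.3%). CAGCTG was in the promoters of Rpt3 and Rpt3R (4.17%, 1.15 to 14.0%, against 17.7%). CANNTG includes both. Each was in 0 of the 7 bound promoters (0 to 35.4%), against 7.32% (CAGATG) and 4.88% (CAGCTG) of the 41 others. The interval covers both shares, so these counts do not set the bound genes apart.

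The other motifs were counted with no test between classes. GATAA, the core letters of GATA factor sites, was in 34 of 48 promoters (70.8% against 55.2%). It was in none of the 7 summit windows (0 to 35.4%), against 22.6% of all sites, a share that this interval covers. A DRE followed by A also holds GATAA, so these counts overlap. GAGAG, the letters of the GAGA factor Trl, was in 3 of 32 core and cap promoters and 6 of 16 of the testis paralogues, against 29.7% of all protein-coding promoters. GGTCACAC, the core of the Ohler promoter motif 1, was in 5 promoters (10.4% against 7.70%), all of them core or cap genes, but in the 500 bp upstream of the start it was in 1 (2.08% against 6.37%). TTAAAA was in 33 (68.8% against 53.4%) and in 2 of the 7 summit windows, Prosbeta2 and Rpn3, against 35.4% of all sites. The mean G+C content of the summit windows was 31.1% ± 12 (SD, n = 7 sites), against 32.6% ± 9.49 (SD, n = 3846).

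**Figure D4:**
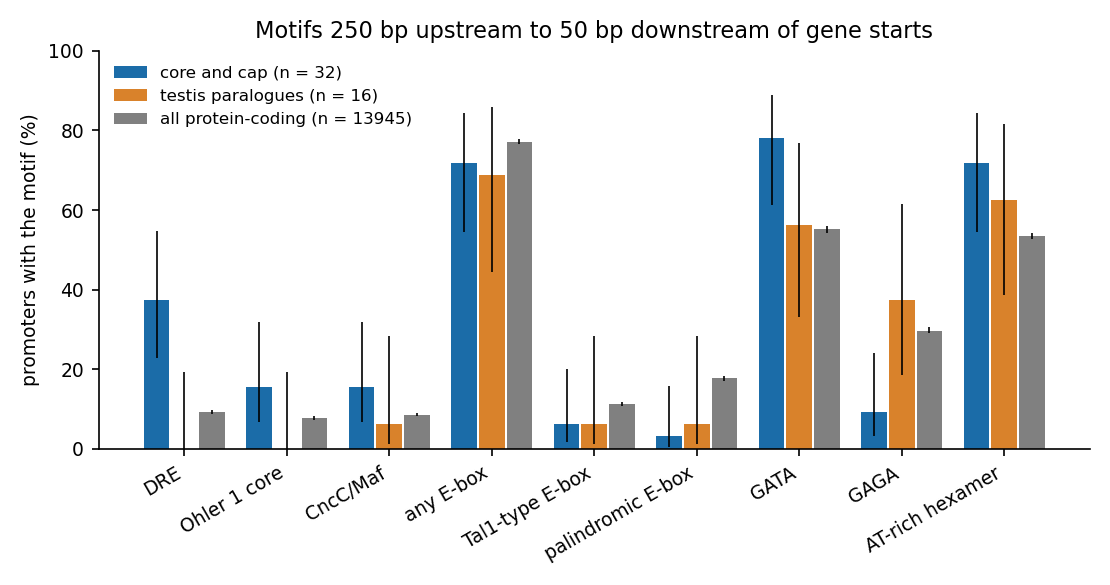
Share of promoters (y axis, %, from 250 bp upstream to 50 bp downstream of the gene start) that hold each of 9 motifs on either strand (x axis), in core and cap genes, testis paralogues and all protein-coding genes, with Wilson 95% intervals. The DRE is in 37.5% of core and cap promoters, 0 testis paralogue promoters and 9.36% of all promoters. Tal1-type E-box is CAGATG, palindromic E-box CAGCTG, CncC/Maf TGACNNNGC, and AT-rich hexamer TTAAAA.

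The proteasome genes are induced together in flies by CncC, the Nrf factor of flies, with the small Maf protein as its partner. TGACNNNGC, the letters of their element, was in 6 of 48 promoters (12.5% against 8.63%), those of Prosalpha2, Prosbeta3, Rpn1, Rpn7, Rpt6 and Prosbeta4R2. None of these was bound, but the interval for 0 of the 7 bound genes, 0 to 35.4%, covers 12.5% and 8.63%. In the 500 bp upstream of the start the order turned, with 10.4% of proteasome genes against 13.1% of all protein-coding genes. There it was in 1 of 32 core and cap genes and 4 of 16 testis paralogues. Both regulator genes carried sites. The cnc gene, 41132 bp long against a median of 2166 bp over all protein-coding genes, had 2 sites. The stronger was in an intron 378 bp downstream of a start, at a signal of 156. Replicate 1 gave 90.8 there and replicate 2 gave 69.4. The site of maf-S had 93.1 (57.9 and 38.9), in its 3' UTR and 141 bp from the start of CG11110.

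Other genes of the pathway were bound at about the share of all protein-coding genes. Of 22 listed genes 21 were matched, 1 of them through a synonym, and Ecm29 was not, and 5 of the 21 (23.8%) were bound against 23.1%. Pomp, the maturation factor that assembles the core, had the strongest site, with a signal of 247 and rank 816 of 3846, 232 bp upstream of its start. It had 137 in replicate 1 and 111 in replicate 2. REG, the activator that opens the core without the cap, had a site of 121 in its 3' UTR (69.3 and 54.8). Npl4, a partner of the segregase TER94, had an intronic site of 85.8, 328 bp upstream of a start (53.0 and 34.5). The 16 matched genes without a site were PI31, Uch-L5, Usp14, Sem1, rngo, Rad23, Ubqn, TER94, Ufd1, Uba1, Ubi-p5E, Ubi-p63E, RpL40, RpS27A, Nedd8 and Hsf, and so included the 4 genes that encode ubiquitin.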

How the data were processed

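HLH3B ChIP-seq peak lists of 2 replicates were analysed; per the labels, positions are on the dm6 assembly. For every replicate, and in 2 sets for the replicates combined, the authors deposited peaks past a threshold and a longer ranking of candidates. Each peak's signal is the authors' own deposited value. The deposited −log10 IDR of candidates is also the authors' own, and 2 is the threshold (IDR 0.01). The sources used here name no peak caller or aligner. Depth is unknown, since the lists hold no counts, and chromatin was sheared to 200 to 800 bp per the labels.

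The summit was placed on genes of Ensembl release 115 (BDGP6.54), and motifs were searched on both strands of the RefSeq Release 6 sequence. No coordinates were converted. Shares have Wilson 95% intervals, and so do the motif counts of 0 of 7. For the 0 of 16 bound testis paralogues the limit in the text is 3 counts, or 18.8%, and the Wilson limit is 19.4%. With 1 group, no test between conditions was possible. Replicate candidates were matched to sites within 100 bp. Scripts were tested on simulated data. Tables were made with pandas 2.3.3 and numpy 2.4.6, intervals with scipy 1.17.1 and figures with matplotlib 3.10.9, under Python 3.11.15.

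The members and lists were chosen with earlier results of these data known. All members are named, with values for each that had a site in any list and for the 5 others with the strongest candidates, and related genes are named where listed. Alternatives covered 11 other lists, thresholds, windows and assignments. The count over any of the 4 lists, the share within the members' range of lengths, the repeat in the Rpn3 gap and the repeated 36-base words were added after values were seen.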

Additional observations from a re-analysis of the deposited data

How the results depend on the processing

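The counts of bound genes depended on the list and on how far upstream a summit may lie. Proteasome genes bound were 7 as reported, 11 in the other series-level list, 11 in any of the 4 lists (chosen after seeing the data), 2 in the stronger part of the list by signal, 4 within 1000 bp of a start and 1 in the body alone. Core genes bound were 3 as reported, 5 in the other list, 5 in any list, 0 in the stronger part and 0 in the body. Cap genes bound were 4 as reported, 2 in the stronger part, 2 within 1000 bp, 1 in the body, and 2 and 2 when sites went to the nearest start of any or of protein-coding genes. Testis paralogues bound were 0 as reported, and 1 and 2 under these nearest-start rules. All protein-coding genes bound were 3219 as reported, 2016 in the stronger part and 1419 in the body. The causes were not tested, apart from the fewer or more peaks and the narrower windows that these settings hold by construction. With each replicate list alone the counts were 7 to 8 for proteasome genes, 3 for core genes, 4 to 5 for cap genes, 0 for testis paralogues and 3131 to 3240 for all protein-coding genes. Rpn6 was bound in replicate 2 alone and Rpn2 in replicate 1 alone, while Rpn13 passed in both and Rpn5 in replicate 2. All 7 conservative sites had a candidate summit in both replicates within 100 or 200 bp, and 6 within 50 bp. The share of proteasome promoters with the DRE was 25.0% in both windows tried, against 10.2% and 9.36% of all protein-coding genes in the 500 bp upstream of the start and the main window. In the 500 bp upstream, GGTCACAC was in 2.08% of proteasome genes against 6.37% of all, and TGACNNNGC in 10.4% against 13.1%, so both turned from above to below the share of all genes. CANNTG (85.4% against 90.2%) and GAGAG (35.4% against 41.0%) stayed below it, and GATAA (83.3% against 71.6%) and TTAAAA (81.2% against 70.7%) above it. The interval of core and cap genes overlapped that of cytosolic ribosomal protein genes in replicate 2 alone and in the body alone (0.554 to 15.7% against 11.0 to 26.4%), in replicate 2 also within 1000 bp of a start. No paired analysis was possible because there is 1 group. With 2 replicates and unknown depth, a gene without a site is not shown to be unbound.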
